A study of Mus musculus with 12 samples.

Results

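The 5 genes described here encode the ligands Gas6 and Pros1 and the receptors Axl, Tyro3 and Mertk. They are 5 of the 32285 genes listed for 12 single-cell RNA libraries of mouse lymph node, and were taken by gene symbol. They were selected on Gas6 UMI counts, which had been higher in high endothelial cells of the mice labelled Cre-positive in an earlier analysis of these libraries, so that difference is described below without a test. Over all cells of the 12 libraries, 61714 molecules of Gas6, 28729 of Pros1, 18512 of Axl, 14999 of Mertk and 542 of Tyro3 were counted. A molecule here is a unique molecular identifier (UMI), the tag that marks 1 captured transcript, and levels are given in CPM, the UMIs of a gene scaled to the same total in each class and library.

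Tyro3, Axl and Mertk form the TAM family of receptor tyrosine kinases. Gas6 and Pros1 (protein S, also an anticoagulant of plasma) are secreted proteins that depend on vitamin K for their carboxylation. They bind phosphatidylserine on the surface of dying cells and platelets with their carboxylated ends and the receptors with their other ends. Mertk and Axl are known for the uptake of dying cells by macrophages and for damping innate immune signalling, and Gas6 and Axl also act in vessel walls. Pros1 is a ligand of Tyro3 and Mertk, whereas Axl is bound by Gas6.

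All mice were C57BL/6 animals of 7 to 10 weeks with floxed Atg12, a gene needed to build autophagosomes. Those labelled Cre-positive carried a tamoxifen-inducible Cre under the promoter of Cdh5, which is active in blood and lymphatic endothelium, and those labelled Cre-negative did not. All received tamoxifen 5 times, the controls included. They were taken after acetone and olive oil alone (vehicle) or 3 or 7 days after 4% oxazolone, a contact sensitiser, in 50 µl on the skin of the abdomen. Cells held on CD45 beads (the CD45 fraction) and unbound cells enriched for endothelium (the CD31 fraction) were sequenced apart, so that each of the 12 groups was 1 library. There were no replicate libraries. The label was therefore compared averaged over the 3 treatments, and each day of oxazolone with vehicle averaged over the 2 labels.

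Libraries held 36724887 to 76186801 UMIs, and 95358 barcodes passed the cell filters. Any 2 libraries shared 7 to 31 cell barcodes, with a median of 16. UMIs of genes on the Y chromosome and of Xist were both frequent in the libraries of 5 of the 6 groups of mice. In the vehicle libraries labelled Cre-positive Xist was found in only 0.088% (CD31) and 0.05% (CD45) of cells. The number of mice is not given in the labels. Atg12 was not lower in libraries labelled Cre-positive. In the order vehicle, day 3 and day 7, with the Cre-negative library first in each pair, high endothelial cells held 44.7 and 52.9, 40.7 and 52.4, and 42.9 and 44.5 CPM of it, and the endothelial-like class led by Nav3 and Ephb1 held 51.7 and 96.1, 45.4 and 84.9, and 50.3 and 66.3 CPM. A 3-prime count can lie outside the deleted exons and so does not check the label.

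Cells fell into 32 classes with at least 20 cells in each of their 6 libraries, 17 in the CD31 and 15 in the CD45 fraction, named after their markers or leading genes. High endothelial venules are the vessels through which lymphocytes enter a node, and the HEV-like class (2051 cells) held their markers in every library, with Chst4 at 119 to 202 CPM and Fut7 at 251 to 432 CPM. The lymphatic-like class led by Lyve1 had 849 to 1058 CPM of Prox1, the lymphatic master regulator. The CD45 fraction was selected for immune cells and also held 4 stromal classes, which carried Pdgfra (216 to 395 CPM in the reticular stroma) beside little Ptprc, the gene of CD45 itself (13.7 to 18.1 CPM there). Classes with fewer cells in a library, such as venous-like and cycling endothelial-like cells, entered no comparison.

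Gas6 (ENSMUSG00000031451) lies on the minus strand of chromosome 8 at 13465374 to 13494490 (GRCm38), and Pros1 (ENSMUSG00000022912) on the plus strand of chromosome 16 at 62854307 to 62929346. Axl (ENSMUSG00000002602) spans 25757273 to 25788705 on the minus strand of chromosome 7. Tyro3 (ENSMUSG00000027298) and Mertk (ENSMUSG00000014361) are both on the plus strand of chromosome 2, at 119797733 to 119818104 and at 128698956 to 128802894. All are protein-coding. The 3-prime end of Gas6 overlaps that of Tmem255b on the opposite strand, and the use of strand in counting is not given in the sources used here, so where both are expressed some reads may be counted for the wrong gene. Mertk overlaps the antisense gene Gm14011 in the same way. Tmem255b held 15 UMIs in the lymphatic-like class led by Ackr4 and 0 in the reticular stroma, where Gas6 held 3253 and 27371 UMIs. In HEV-like cells it held 325 UMIs against 268 of Gas6, and in the class led by Nav3 and Ephb1 450 against 1242.

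The 250 bases before the start site are shown for both ligands, which were found in the same compartments (below). The stretches are chr8:13494536-13494785, minus strand, and chr16:62854057-62854306, plus strand, from RefSeq on GRCm38.p6. Capitals mark GC boxes, the motif GGGCGG or its reverse complement CCGCCC, overlapping matches included, to which Sp1-type factors can bind.

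Gas6 promoter: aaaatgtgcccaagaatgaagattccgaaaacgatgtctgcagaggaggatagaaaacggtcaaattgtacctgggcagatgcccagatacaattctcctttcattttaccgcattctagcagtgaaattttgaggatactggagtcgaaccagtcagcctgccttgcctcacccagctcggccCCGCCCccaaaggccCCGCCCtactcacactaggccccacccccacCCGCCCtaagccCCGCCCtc
Pros1 promoter: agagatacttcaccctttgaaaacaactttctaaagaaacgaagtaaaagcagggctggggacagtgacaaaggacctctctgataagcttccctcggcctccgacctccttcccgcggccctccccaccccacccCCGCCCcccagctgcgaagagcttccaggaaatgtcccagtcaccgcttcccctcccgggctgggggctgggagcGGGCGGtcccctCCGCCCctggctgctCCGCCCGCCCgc

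Gas6 had 4 GC boxes and Pros1 had 5, at a GC content of 54.8% and 64.4%. Of 32851 mouse promoters in the same window, 32.7% had at least 1 GC box, 4.09% at least 4 and 1.93% at least 5. Mertk and Tyro3 had 3 each and Axl had 1. The interferon-type motif GAAANNGAAA, searched on both strands, was in none of the 5 windows and in 2.98% of all promoters.

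Gas6 was highest in stroma. Its mean in the fibroblast-like class led by Mgp and Fbln1 was 687 ± 257 CPM (SD, n = 6 libraries of 6 groups). In the reticular stroma, the cells that build the scaffold of the node and its chemokine field, it was 553 ± 246 CPM. The fibroblast-like class led by Slit2 and Apod had 265 ± 125 CPM and that led by Pi16 had 52.6 ± 23.2 CPM. Among the 8 named endothelial classes of the CD31 fraction, lymphatic-like cells came first, at 267 ± 93.4 CPM in the class led by Lyve1 and 175 ± 41.7 CPM in that led by Ackr4. A further cluster with Prox1, led by Coch and Ccl20 and given no cell type name (below), is not ranked among them. Its mean log2(CPM + 1) of Gas6 was 5.63, beside 8.01 and 7.43 in the 2 lymphatic-like classes and 3.48 in HEV-like cells. Blood endothelial-like classes spanned a wide range. The class led by Penk and Col13a1 had 166 ± 31.8 CPM, arterial-like cells 139.9 ± 45.1 CPM, capillary-like cells 100.2 ± 21.9 CPM, the class led by Nav3 and Ephb1 74.97 ± 31.5 CPM and that led by Prnd and Aplnr 55.8 ± 29.2 CPM. HEV-like cells, in which Gas6 had drawn attention, had the lowest mean of the 8 endothelial classes, at 13.5 ± 11.8 CPM. In 12 lymphocyte classes the highest mean was 4.04 CPM.

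Pros1 was found in the same compartments. Of the class means, the highest were those of lymphatic-like cells led by Lyve1, at 223 ± 19.9 CPM, and of fibroblast-like cells led by Slit2 and Apod, at 209 ± 24.01 CPM. Lymphatic-like cells led by Ackr4 had 158 ± 13.6 CPM and capillary-like cells 127 ± 7.75 CPM, whereas HEV-like cells had 58.4 ± 6.95 CPM. In the CD45 fraction the class led by Mgp and Fbln1 had 141 ± 21.7 CPM, that led by Pi16 108 ± 20.3 CPM and the reticular stroma 89.2 ± 8.89 CPM. The highest lymphocyte mean was 6.29 CPM.

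**Figure D1:**
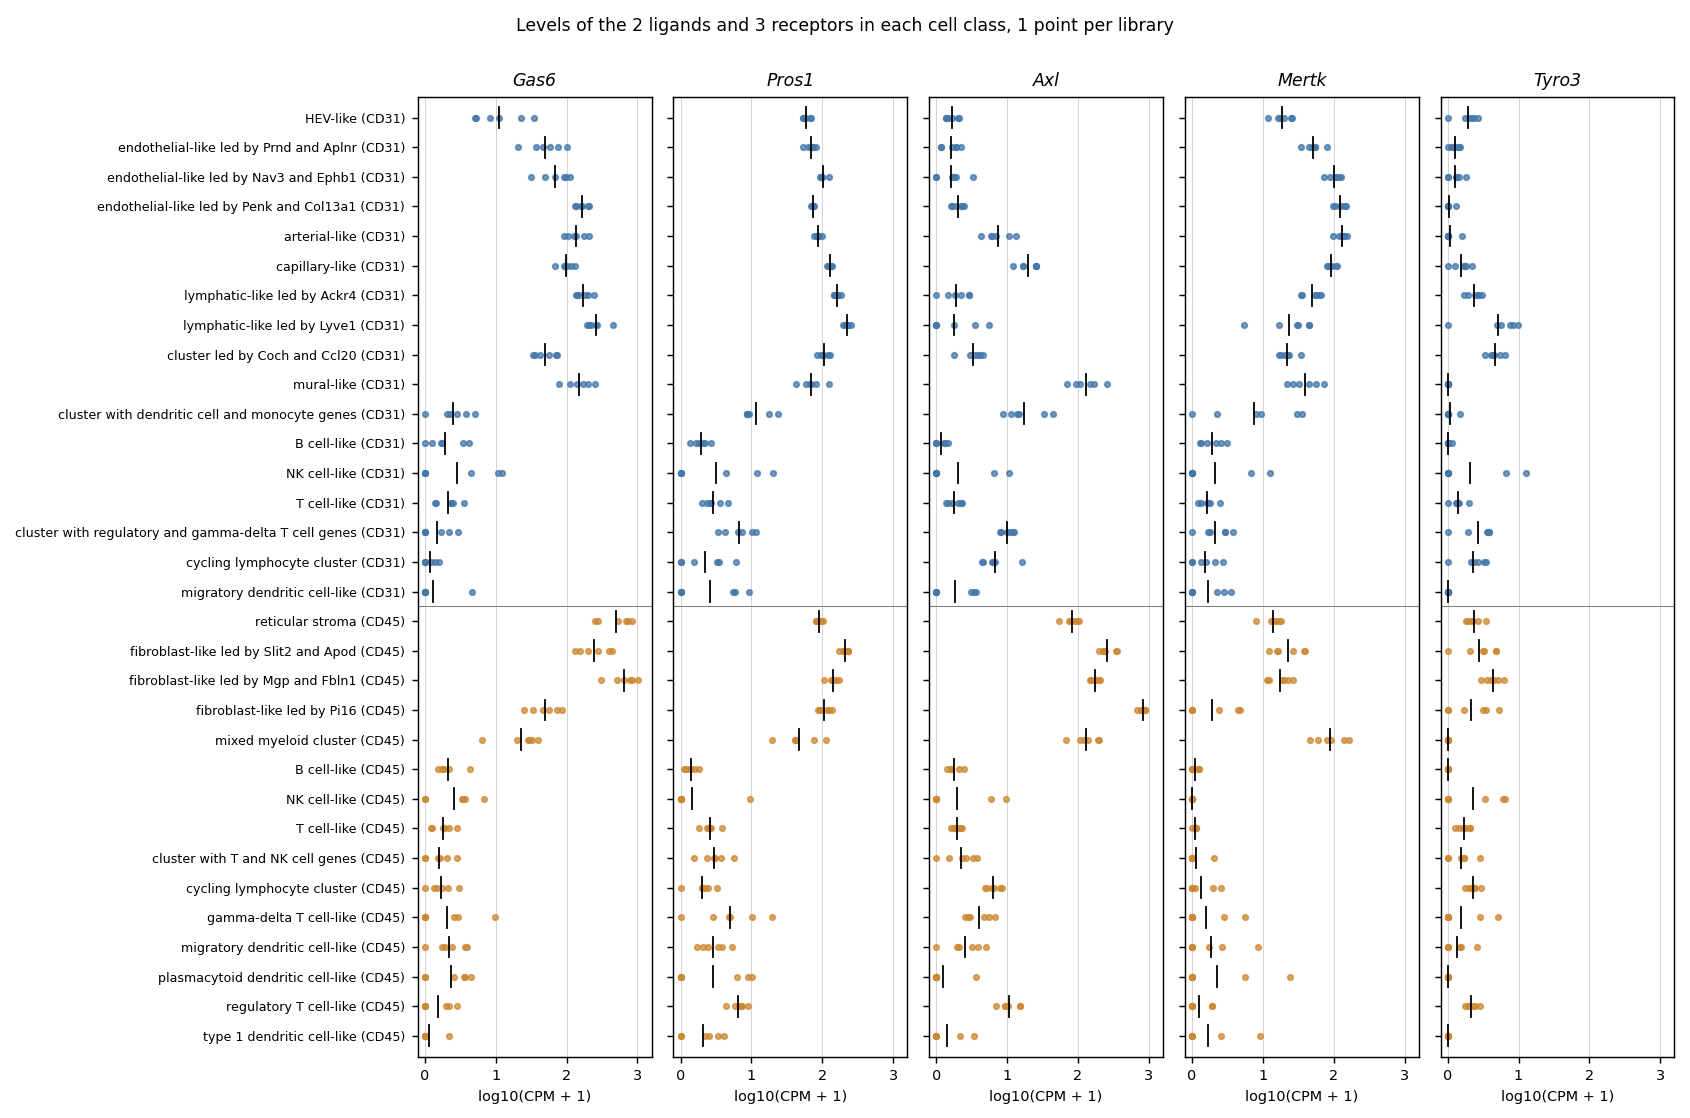
Levels of Gas6, Pros1, Axl, Mertk and Tyro3 as log10(CPM + 1) in 32 cell classes, with 1 point per library, a black line at the mean of the logs, the CD31 fraction above the grey line in blue and the CD45 fraction below it in orange. Gas6 and Pros1 share the stroma and the endothelium, Axl sits in stromal, mural and myeloid cells, Mertk is highest in arterial-like cells, and Tyro3 reaches at most 11.6 CPM in any library.

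The receptors split between compartments. Axl was highest in fibroblast-like cells led by Pi16, which line the outside of vessels and the capsule in many tissues, at 818 ± 83.7 CPM. The class led by Slit2 and Apod had 265 ± 65.4 CPM, that led by Mgp and Fbln1 174 ± 22.1 CPM and the reticular stroma 82.1 ± 18.3 CPM. Mural-like cells, the pericytes and smooth muscle of vessels, had 139 ± 67.1 CPM in 250 cells. Fibroblast genes such as Col3a1, Col1a2 and Ccl19 are also among the leading genes of this cluster, and the part of fibroblasts in its Axl was not tested. Axl was at 136 ± 49.7 CPM in the mixed myeloid cluster of the CD45 fraction. In endothelium Axl was at 19.5 ± 5.96 CPM in capillary-like and 6.87 ± 3.39 CPM in arterial-like cells, and at most 1.30 CPM on average in the other 6 classes. Among lymphocytes, regulatory T cell-like cells of the CD45 fraction had 10.03 ± 3.33 CPM, and a CD31 cluster with regulatory and gamma-delta T cell genes had 9.26 ± 1.92 CPM. Cycling lymphocytes had 6.41 ± 4.48 CPM and 5.52 ± 1.46 CPM in the CD31 and CD45 fractions, and T cell-like cells 0.843 ± 0.407 CPM and 0.972 ± 0.275 CPM.

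Mertk had another layout. Of the 32 classes, the 3 with the highest means were in blood endothelium. Arterial-like cells had 129.7 ± 20.1 CPM, the class led by Penk and Col13a1 123 ± 20.1 CPM and that led by Nav3 and Ephb1 103 ± 19.8 CPM. Macrophage-like sub-clusters held more, at 313 to 426 CPM (below). Those of the CD31 fraction had too few cells in a library to be among the 32 classes. Those of the CD45 fraction lay within the mixed myeloid cluster. The mixed myeloid cluster had 96.1 ± 46.3 CPM and capillary-like cells 92.9 ± 12.96 CPM. The class led by Prnd and Aplnr had 52.1 ± 15.4 CPM and HEV-like cells 18.3 ± 5.37 CPM. Lymphatic-like cells had 50.7 ± 13.5 CPM (led by Ackr4) and 28.1 ± 15.8 CPM (led by Lyve1), and the 4 stromal classes 1.43 to 23.7 CPM. The fibroblast-like class with the most Axl, that led by Pi16, had the least Mertk of these. By class means, Axl was thus higher in each of the 4 stromal classes than in any endothelial class, and Mertk higher in 5 of the 6 blood endothelial-like classes than in any stromal class. The exception was HEV-like cells, with Mertk in the range of the stroma and Gas6 at 13.5 ± 11.8 CPM. In lymphocytes no class mean of Mertk was above 2.91 CPM.

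Tyro3 was rare everywhere. Its highest class mean was 5.21 ± 3.13 CPM, from 29 UMIs in the 672 lymphatic-like cells led by Lyve1, followed by the cluster led by Coch and Ccl20 with 3.72 ± 1.13 CPM from 41 UMIs. That cluster held 572 to 922 CPM of Prox1, but its best-matching marker list was carried by 2 genes, and it was given no cell type name. The reticular stroma had 1.38 ± 0.596 CPM from 81 UMIs and was the only class with enough Tyro3 for a test. Of the 160 pairs of a gene and a class, 57 passed the expression filter, namely 15 for Gas6, 17 for Pros1, 10 for Axl, 14 for Mertk and 1 for Tyro3.

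The myeloid cells of each fraction were split further to see which of them carried the receptors, as a description. Macrophage-like cells led by Marco and Cd209b, genes of macrophages that line lymphatic sinuses, held Axl at 706 CPM (665 to 748) in 105 cells of the CD31 fraction and 685 CPM (625 to 749.7) in 41 cells of the CD45 fraction, with 95% exact Poisson intervals that cover counting error only. Mertk was at 329 CPM (302 to 359) and 320.0 CPM (279 to 365) in the same cells. Other sets of cells with few UMIs, left unnamed, also held Marco, and carried less of both receptors. In the CD45 fraction 27 cells led by Ccl8 and Cd209b (median 1757 UMIs) had 479 CPM of Axl and 49.5 CPM of Mertk, the latter from 3 UMIs. In the CD31 fraction 38 cells led by Ccl21a and Cxcl13 (median 1910.0 UMIs) had 318 and 43.02 CPM, and 115 cells with endothelial genes, nearly all of them from the day 3 library labelled Cre-positive, had 182 and 95.3 CPM. The cells led by Marco and Cd209b also carried both ligands, with Pros1 at 255 CPM and 291 CPM and Gas6 at 103 CPM and 139.6 CPM. Other macrophage-like cells, led by Lyz1 and Pf4 in the CD31 and by Pf4 and Ccl12 in the CD45 fraction, had less Axl, 281 CPM (244 to 322) and 348 CPM (307 to 393), and Mertk at 313 CPM (274 to 357) and 426 CPM (379.8 to 476). They held little Pros1, 20.5 CPM and 35.5 CPM. Mertk is among the genes that lead the second of these sub-clusters, so its level there is no finding. Monocyte-like cells led by Chil3 held 49.9 CPM and 16.9 CPM of Axl and 15.6 CPM and 1.06 CPM of Mertk. Another CD45 sub-cluster with monocyte genes, left unnamed, was led by Cxcl9 and Il1rn, held 420.4 CPM of Ly6c2 and 457 CPM of Ccr2, and came mostly from the day 3 libraries. Its 132 cells held 52.9 CPM of Axl and 41.9 CPM of Mertk. Type 1 dendritic cell-like cells led by Xcr1 held 6 UMIs of Axl and 1 of Mertk in 96 cells. No Tyro3 UMI was found in any of these named sub-clusters, where 3 counts would be 1.90 to 4.36 CPM and the exact Poisson upper bounds are 2.34 to 5.37 CPM.

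**Figure D2:**
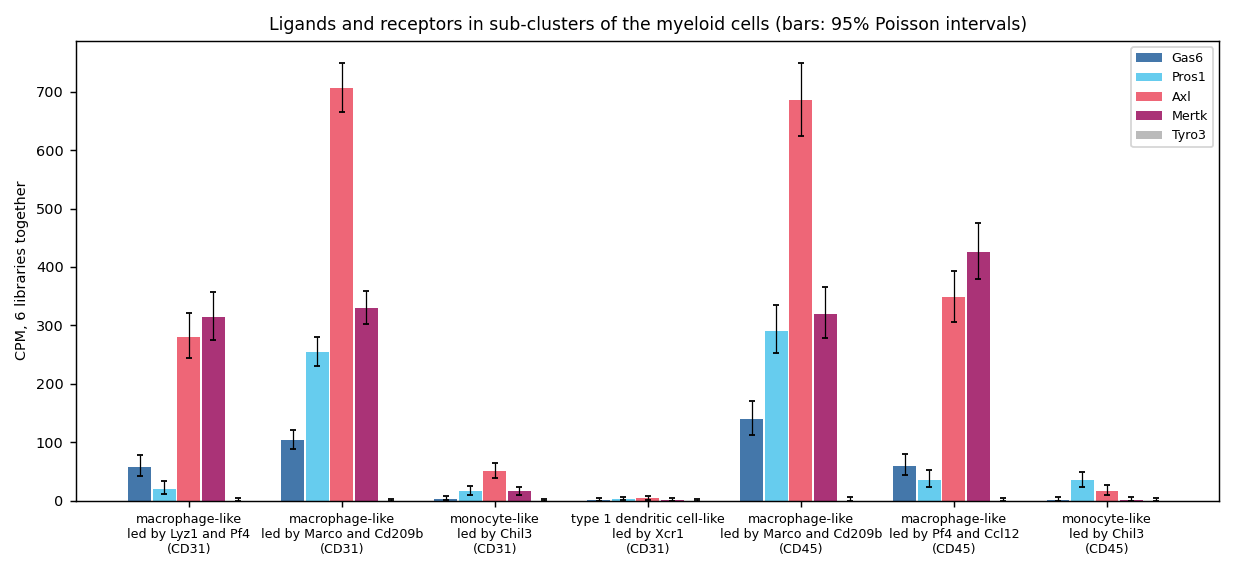
CPM of the 5 genes in sub-clusters of the myeloid cells, the 6 libraries of a fraction together, with 95% exact Poisson intervals as error bars. Axl is highest in both fractions in the cells led by Marco and Cd209b (706 and 685 CPM), and Mertk is carried by both kinds of macrophage-like cells.

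Neighbours in the order of levels were compared by a 2-sided exact sign-flip permutation test over the 6 libraries, whose smallest p is 0.0312. The order was taken from the same 6 libraries, so the direction of each mean difference was set by it. Of 150 neighbouring pairs over the 5 genes and 2 fractions, 23 differed in the same direction in all 6 libraries. The share of such steps over all genes is not given here, so this count is not read as a result about the 5 genes. For Gas6 in the CD31 fraction the 23 steps included the cluster led by Coch and Ccl20 over HEV-like cells (log2 difference 2.15 ± 0.99, SD). That step is a description only, since Gas6 was chosen on its values in HEV-like cells. The others were lymphatic-like cells led by Lyve1 over those led by Ackr4 (0.58 ± 0.40, exact p = 0.0312, adjusted p = 0.167) and the class led by Nav3 and Ephb1 over that led by Prnd and Aplnr (0.47 ± 0.19, same p). In the CD45 fraction they were the reticular stroma over fibroblast-like cells led by Slit2 and Apod (1.05 ± 0.26, exact p = 0.0312, adjusted p = 0.109), those over the class led by Pi16 (2.30 ± 0.45), that class over the mixed myeloid cluster (1.10 ± 0.74) and this cluster over NK cell-like cells (3.15 ± 1.05). With 14 or 16 neighbours per gene, an adjusted p under 0.05 would need most neighbours to reach the smallest p of 0.0312. No adjusted p was under 0.109, from which nothing is read. Of the 2 stromal classes with the most Gas6, that led by Mgp and Fbln1 was above the reticular stroma in 5 of 6 libraries (0.36 ± 0.33, exact p = 0.0625, adjusted p = 0.175). Lymphatic-like cells led by Ackr4 and the class led by Penk and Col13a1 did not differ beyond their spread (0.07 ± 0.50, higher in 3 of 6). For Axl the step from the class led by Pi16 to that led by Slit2 and Apod was 1.65 ± 0.37 in 6 of 6 libraries (exact p = 0.0312, adjusted p = 0.109).

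Over the 17 CD31 classes the mean log2(CPM + 1) of Gas6 and Pros1 had a Pearson r of 0.94, and that of Gas6 and Mertk 0.92. Axl followed neither there (r = 0.12 with Gas6 and 0.15 with Mertk). Over the 15 CD45 classes r was 0.93 between Gas6 and Pros1 and 0.96 between Axl and Pros1. These are descriptions over classes that share libraries and depth. Lymphocyte classes are low in Gas6, Pros1 and Mertk alike, and r includes them. Among the other CD31 classes Gas6 and Mertk differed in order. On this scale lymphatic-like cells led by Lyve1 were at 8.01 for Gas6, its highest, and at 4.57 for Mertk. Arterial-like cells were at 7.08 and 7.02. The genes with the most alike profile, of 14557 compared in the CD31 fraction, were Timp3, Zfp449 and Rab18 for Gas6 (r = 0.98, 0.98 and 0.97), Arhgap23, Nfia and Plscr3 for Pros1 (0.98, 0.98 and 0.98), Fabp3, Pde5a and Tnfsf13b for Axl (0.86, 0.86 and 0.85), Epha4, A930004D18Rik and Mcc for Mertk (0.98, 0.98 and 0.98) and Slc39a4, Tmem173 and Gm15655 for Tyro3 (0.90, 0.88 and 0.88). In the CD45 fraction they were Klf15, A4galt and Prickle2 for Gas6 (0.99, 0.99 and 0.98), Ctsf, Reps2 and Pmp22 for Pros1 (0.98, 0.98 and 0.98), Ctnnb1, Pros1 and Dmpk for Axl (0.97, 0.96 and 0.95), Rxrg, Gm13986 and Nr1h3 for Mertk (0.96, 0.94 and 0.94) and Fhl2, Dipk1b and Adgrl1 for Tyro3 (0.91, 0.89 and 0.88).

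By label, Gas6 was higher in the libraries labelled Cre-positive in the endothelial-like class led by Nav3 and Ephb1, and this was the only one of 54 tests of the 5 genes to pass. The 54 leave out HEV-like cells, whose label values chose the genes. The other CD31 classes come from the same libraries. With another clustering seed 2814 cells in place of 2051 were HEV-like, so cells behind that choice can lie in other classes. The Gas6 tests by label in these classes are therefore not independent of the choice. The class led by Nav3 and Ephb1 held 3584 cells. At vehicle Gas6 was at 48.7 CPM (40.7 to 57.9) in the Cre-negative and 112 CPM (100.3 to 125) in the Cre-positive library, with 95% exact Poisson intervals. At day 3 the values were 30.3 CPM (21.2 to 41.9) and 92.5 CPM (80.3 to 106), and at day 7 they were 67.97 CPM (59.6 to 77.2) and 98.4 CPM (87.6 to 110.1). All 3 libraries labelled Cre-positive stood above all 3 labelled Cre-negative, an order held by 2.52% of genes with at least 60 UMIs in these cells. Averaged over treatments Gas6 rose by 1.06 on the log2 scale (SE 0.16, edgeR adjusted p = 0.0119), in a class where 0.164% of genes were called by label. Over all classes 0.113% of 284665 tests of a gene in a class were called.

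This call rested on the day 3 libraries and on the handling of doublets. Without the day 3 CD31 library labelled Cre-negative the log2 difference was 0.90 (edgeR adjusted p = 0.470), and without that labelled Cre-positive it was 0.90 (edgeR adjusted p = 0.457). With doublets kept it was 1.02 (edgeR adjusted p = 0.0611), and in cells with a UMI of the Y chromosome alone 0.96 (edgeR adjusted p = 0.210). DESeq2 also called it (adjusted p = 0.00691). The automatic threshold of the doublet caller marked 0 of 10035 barcodes in the vehicle CD31 library labelled Cre-negative and 2 of 11636 in the day 3 CD31 library labelled Cre-positive. The caller had thus not worked in these 2 libraries. In both the barcodes removed by rank had fewer UMIs (medians 3932.5 and 2203) than those left (medians 4325 and 3433), whereas in the other 10 libraries they had more. The part of doublets in this call was not tested beyond keeping them. Tmem255b, whose end overlaps Gas6, was at 26.4 and 28.00, 23.5 and 38.9, and 28.1 and 27.6 CPM in these cells, Cre-negative first in each pair. After thinning to 2000 UMIs, with the 54 to 155 shallower cells of each library left out, the share with a Gas6 UMI was 8.07% and 16.9% at vehicle, 6.51% and 12.98% at day 3, and 11.9% and 15.9% at day 7 (16.5% and 28.1%, 10.04% and 23.1%, and 19.4% and 30.3% of all cells before thinning, whose median depth per library was 3470.0 to 4841 UMIs).

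**Figure D3:**
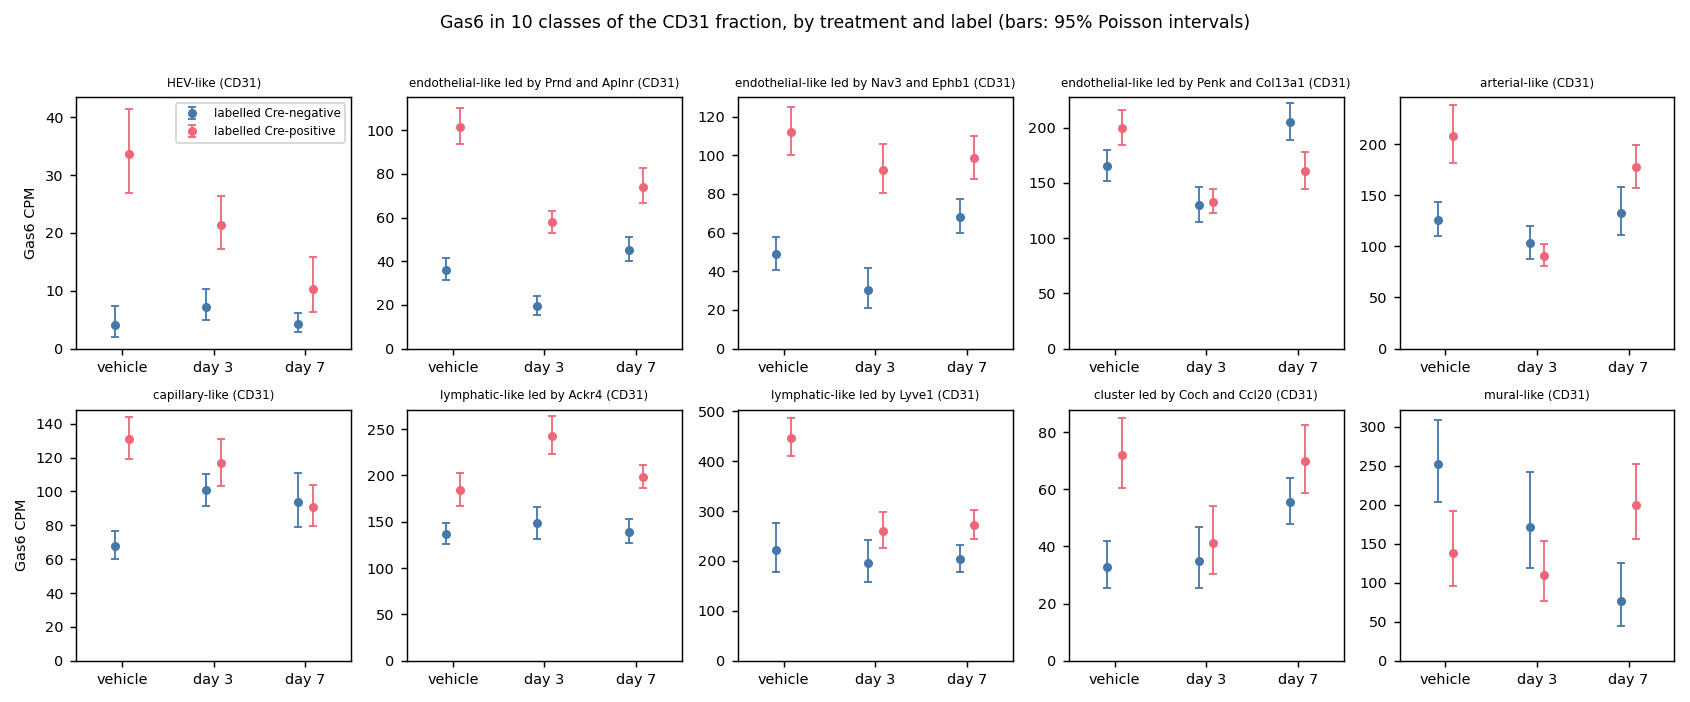
Gas6 CPM in 10 classes of the CD31 fraction at vehicle, day 3 and day 7, with libraries labelled Cre-negative in blue and Cre-positive in red and 95% exact Poisson intervals as bars. In HEV-like cells, in the classes led by Prnd and Aplnr and by Nav3 and Ephb1 and in both lymphatic-like classes, all 3 red points lie above all 3 blue ones.

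In HEV-like cells, the value that chose these genes, Gas6 was at 4.09 CPM (2.04 to 7.32) in the vehicle library labelled Cre-negative and 33.6 CPM (26.9 to 41.5) in that labelled Cre-positive. At day 3 the values were 7.24 CPM (4.95 to 10.2) and 21.4 CPM (17.2 to 26.3), and at day 7 they were 4.25 CPM (2.82 to 6.14) and 10.2 CPM (6.25 to 15.8). All 3 libraries labelled Cre-positive stood above the others. This order was held by 4.26% of genes in these cells, a share from which nothing is read, since Gas6 was chosen on this difference. The log2 ratio within a treatment was 3.04 at vehicle, 1.57 at day 3 and 1.27 at day 7, with a mean of 1.96 ± 0.95 (SD, n = 3 pairs). The mean in the class led by Nav3 and Ephb1 was 1.12 ± 0.54. The difference in label ratio between the 2 classes was not tested.

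The same order was found in 3 further endothelial classes, in the same libraries on which Gas6 was chosen. In the class led by Prnd and Aplnr, Gas6 was at 36.1 and 102 CPM at vehicle, 19.4 and 57.8 CPM at day 3 and 45.4 and 74.2 CPM at day 7, Cre-negative first (log2 difference 1.30, SE 0.19, edgeR adjusted p = 0.0984). DESeq2 gave it an adjusted p of 4.0e-05, and edgeR an adjusted p of 0.00372 when the clustering was repeated with another seed. In lymphatic-like cells led by Lyve1 it was at 222 and 447, 196 and 260.3, and 204 and 272 CPM (0.64, SE 0.18, edgeR adjusted p = 0.900), and in those led by Ackr4 at 137 and 184, 148 and 243, and 139 and 199 CPM (0.62, SE 0.20, edgeR adjusted p = 0.900). The share of all genes that held this order was 1.58%, 3.64% and 2.3% in these 3 classes. In the cluster led by Coch and Ccl20, Gas6 was higher in each of 3 pairs, at 32.8 and 71.9, 34.8 and 41.1, and 55.6 and 69.8 CPM, but its groups overlapped.

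The class led by Penk and Col13a1 (165 and 199.8, 130.1 and 133, and 205 and 161 CPM), arterial-like cells (126 and 209, 103 and 90.9, and 133 and 177 CPM) and capillary-like cells (67.7 and 131, 101 and 117, and 93.96 and 91.1 CPM) were not higher in every pair. With another clustering seed, which moved cells between the blood endothelial-like classes, Gas6 in arterial-like cells had a log2 difference of 0.69 (edgeR adjusted p = 0.0295) in place of 0.37, SE 0.16, edgeR adjusted p = 0.998. Nor were the 4 stromal classes higher in every pair, and their mean log2 ratio of the label ran from 0.01 to 0.27. At an unadjusted p under 0.05 there were 10 of 54 tests, of which 9 were higher in libraries labelled Cre-positive, beside 6.66% of all tests. Gas6 made up 7 of them, each higher, from its 14 classes tested. This count is not independent of the choice of Gas6 on these data.

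For Pros1 none of 16 tests by label had an unadjusted p under 0.05, none was called by edgeR and none by DESeq2. Its 3 libraries labelled Cre-positive stood above the others by a small margin in the class led by Nav3 and Ephb1, at 92.9 and 97.5, 94.1 and 97.8, and 96.03 and 124 CPM (0.22, SE 0.11, edgeR adjusted p = 0.999). In HEV-like cells it was at 52.5 and 67.6, 55.9 and 66.7, and 52.3 and 55.3 CPM, higher in each pair. Of the receptors, Mertk in lymphatic-like cells led by Ackr4 was at 33.7 and 61.4, 56.1 and 53.8, and 34.4 and 64.8 CPM (log2 difference 0.65, SE 0.21, edgeR adjusted p = 0.875), and was not higher at day 3. Mertk was higher in each pair in the class led by Nav3 and Ephb1, at 108 and 127, 73.1 and 87.6, and 108 and 117 CPM (0.24, SE 0.11, edgeR adjusted p = 0.999), with overlapping groups. Axl in mural-like cells was lower in each pair, at 167 and 146, 104 and 69.2, and 256 and 94.2 CPM (-0.77, SE 0.32, edgeR adjusted p = 0.997), with 24 to 52 cells in a library. Its 11 fibroblast markers, all detected, summed to 1215 to 11075 and 8447 to 10424 CPM in libraries labelled Cre-negative and Cre-positive. The lowest of these sums was in the day 7 library labelled Cre-negative, which held the most Axl. This is 1 library, and the part of fibroblasts in the label values of Axl was not tested. Free RNA, estimated from barcodes with few UMIs, made up 18.993% and 16.86% of the UMIs of mural-like cells at vehicle, Cre-negative first. It made up 0.791% and 19.868% at day 3, and 1.469% and 10.717% at day 7. The estimate was thus higher in the library labelled Cre-positive at day 3 and day 7, but not at vehicle. The part of free RNA in the label values of Axl is not given here. In cycling lymphocytes Axl had the opposite order, with all 3 libraries labelled Cre-positive above the others. In the CD31 fraction its values were 5.07 and 15.4, 3.59 and 5.38, and 3.44 and 5.65 CPM, from 89 UMIs in all, and in the CD45 fraction 3.85 and 5.55, 4.24 and 7.55, and 5.03 and 6.90 CPM, from 141 UMIs in all. This order was held by 3.55% and 11.1% of genes in these cells. Tyro3 in the reticular stroma was at 1.67 and 0.810, 1.14 and 2.43, and 0.933 and 1.27 CPM (0.32, SE 0.50, edgeR adjusted p = 0.863), with overlapping groups.

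Some other measures moved with the label. Free RNA, read from barcodes with few UMIs, held Gas6 at 34.02 and 77.5 CPM at vehicle, 37.1 and 42.6 CPM at day 3 and 49.3 and 80.98 CPM at day 7 in the CD31 libraries, so it too was higher in each library labelled Cre-positive. Free RNA was estimated to make up 0.657% to 2.04% of the UMIs of the class led by Nav3 and Ephb1. The call held with it subtracted (log2 difference 1.07, edgeR adjusted p = 0.0208). In HEV-like cells the estimate was 2.23% to 12.4%, and with it subtracted the first vehicle library was at 0, the second at 30.2 CPM, and the later pairs at 6.47 and 18.8 and at 1.91 and 5.46 CPM. B cell-like and T cell-like cells of the CD31 fraction, which should lack Gas6, held 0 to 3.19 CPM, from 0 to 10 UMIs in a library. The mean log2 label ratio of these few UMIs was 1.95 ± 0.14 in B cell-like (SD, n = 2 pairs without a 0) and 1.40 ± 1.44 in T cell-like cells (n = 3 pairs), beside the 1.96 of HEV-like cells, in which its part was not tested. In the CD45 fraction it was 1.17 ± 0.75 and 1.86 ± 1.29 (n = 3 pairs each). B cell-like cells of the CD45 fraction had the same order of the labels, at 0.730 and 1.19, 0.512 and 0.877, and 0.807 and 3.31 CPM, as did 15.3% of their genes.

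The summed HEV markers of the HEV-like class were at 34116 to 93778 and 21151 to 32381 CPM in libraries labelled Cre-negative and Cre-positive, with all 9 markers detected, and the part of this and of the lists below in the Gas6 values was not tested. Its 9 lymphatic markers summed to 56.9 to 124 and 64.9 to 112 CPM and its 10 mural markers to 98.8 to 129 and 112 to 249.7 CPM. Its 11 fibroblast markers summed to 477 to 529 and 539 to 552 CPM, with Pdgfra, Lum, Col1a1, Col1a2, Col3a1 and Clec3b at 3 UMIs or fewer. The sum of HEV markers was lower and that of fibroblast markers higher in the libraries labelled Cre-positive, without overlap. A sum gives most weight to its most abundant genes, and the markers were not compared one by one. The higher order was held by 4.26% of genes in these cells, and the share with the lower order is not given here. The 10 capillary markers of the HEV-like class summed to 3080.3 to 3234 and 3078 to 3909 CPM. In the class led by Nav3 and Ephb1, fibroblast markers summed to 728 to 753 and 711 to 746 CPM, with Lum, Col1a2, Pi16 and Clec3b at 3 UMIs or fewer. There mural markers summed to 175 to 219 and 151 to 196 CPM, lymphatic markers to 48.3 to 56.3 and 45.2 to 66.1 CPM and capillary markers to 6592 to 7099 and 5395 to 6427 CPM. The last sums were lower in the libraries labelled Cre-positive, without overlap. The share of genes with that order is not given here, and the part of these markers was not tested.

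With HEV-like cells thinned to 2000 UMIs, and the 3 to 96 shallower cells of each library left out, a Gas6 UMI was found in 0.901% and 7.11% at vehicle, 2.30% and 5.48% at day 3, and 0.917% and 2.61% at day 7 (4.06% and 19.7%, 6.09% and 12.6%, and 3.76% and 8.33% of all cells before thinning, with median depths per library of 7316 to 12362 UMIs). In B cell-like cells of the CD31 fraction it was 0.0710% and 0.251% at vehicle, 0% and 0% at day 3, and 0.117% and 0.390% at day 7 after the same thinning, with 41 to 103 cells of a library left out, from median depths of 2929 to 3655 UMIs. The label ratio of Gas6 in HEV-like cells was 2.01 ± 1.32 in cells with a UMI of the Y chromosome alone. It was 1.42 without the vehicle pair, whose Cre-positive library held almost no Xist.

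At day 3 of oxazolone, edgeR called 0 of the 57 tests of these genes, beside 0.465% of all tests, and DESeq2 called 1. The 57 include Gas6 in HEV-like cells, on whose libraries it was chosen, so counts among them are not independent of that choice. The count of edgeR became 11 with no expression filter, where more of the 160 pairs of a gene and a class were tested. The share of all genes called in that fit is not given here, so the 11 is not comparable with the 0 of 57. It became 4 without the vehicle CD31 library labelled Cre-negative, either day 7 CD31 library or the day 7 CD45 library labelled Cre-negative. At an unadjusted p under 0.05 there were 17, of which 16 were lower than vehicle, beside 11% of all tests. The call by DESeq2 was Gas6 in the reticular stroma (log2 difference -1.16, DESeq2 adjusted p = 5.0e-04). There Gas6 was at 524 and 731 CPM at vehicle, 277 and 252 CPM at day 3 and 843 and 695 CPM at day 7, Cre-negative first (day 3 against vehicle, log2 difference -1.17, SE 0.26, edgeR adjusted p = 0.0560). Both day 3 libraries were below both vehicle libraries, as for 33.8% of genes in these cells.

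The reticular stroma joins 4 clusters whose sizes moved with treatment. The cluster led by Saa3 and Cxcl13 held 62 and 23 at vehicle, 888 and 705 at day 3 and 36 and 141 at day 7, and so most cells at day 3. The cluster led by Ccl21a and Stmn2 held 253 and 340 at vehicle, 175 and 146 at day 3 and 318 and 697 at day 7, that led by Cyp2f2 and Stc1 238 and 606 at vehicle, 81 and 50 at day 3 and 511 and 282 at day 7, and that led by Syt1 and Hamp 34, 17, 19, 12, 22 and 58 in the same order. Within the cluster led by Ccl21a and Stmn2 Gas6 was at 662 and 779.5, 216 and 289, and 841 and 837 CPM, so both day 3 values lay below both vehicle values. In that led by Cyp2f2 and Stc1 it was at 599.5 and 739.9, 766 and 378, and 916 and 806 CPM, with the day 3 library labelled Cre-negative above both vehicle libraries. In that led by Saa3 and Cxcl13 it was at 235 and 574, 265 and 240.2, and 576 and 296 CPM, with both day 3 values between the 2 vehicle values. In that led by Syt1 and Hamp, with 0 to 20 UMIs of Gas6 in a library, it was at 7.02 and 76.2, 0 and 15.1, and 100.1 and 6.19 CPM. The part of the mix of clusters in the lower sum at day 3 was not tested.

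In the other stromal classes Gas6 had lower values at day 3 as well. In the fibroblast-like class led by Mgp and Fbln1 it was at 641 and 1029, 518 and 304, and 783 and 848 CPM in the order vehicle, day 3 and day 7 (day 3 against vehicle, -1.06, SE 0.39, edgeR adjusted p = 0.285). In that led by Slit2 and Apod it was at 203 and 393, 131 and 155, and 431 and 276 CPM (-1.15, SE 0.37, edgeR adjusted p = 0.622), and in that led by Pi16 at 46.3 and 73.2, 32.6 and 23.9, and 55.99 and 84.00 CPM (-1.15, SE 0.33, edgeR adjusted p = 0.562). Both day 3 libraries were below both vehicle libraries in these 3 classes, as were 19.5%, 11.7% and 14.6% of genes. The log2 ratio of day 3 to vehicle was -1.76 with the label Cre-positive and -0.31 with Cre-negative in the class led by Mgp and Fbln1, -1.34 and -0.63 in that led by Slit2 and Apod, and -1.61 and -0.51 in that led by Pi16. With 1 library per group this difference between labels was not tested.

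In arterial-like cells Gas6 was at 126 and 209 CPM at vehicle, 103 and 90.9 CPM at day 3 and 133 and 177 CPM at day 7 (day 3 against vehicle, -0.72, SE 0.19, edgeR adjusted p = 0.0610). It passed with only cells of at least 2000 UMIs (-0.78, edgeR adjusted p = 0.0318), with free RNA subtracted (-0.72, edgeR adjusted p = 0.0486) and with another clustering seed (-1.07, edgeR adjusted p = 8.4e-05). The class led by Penk and Col13a1 had day 3 values below vehicle too (165 and 199.8, 130.1 and 133, and 205 and 161 CPM, -0.43, SE 0.18, edgeR adjusted p = 0.318). Both day 3 libraries were below both vehicle libraries in 27.1% and 27.5% of genes in these classes. In the class led by Prnd and Aplnr the groups overlapped (-0.76, SE 0.23, edgeR adjusted p = 0.132).

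**Figure D4:**
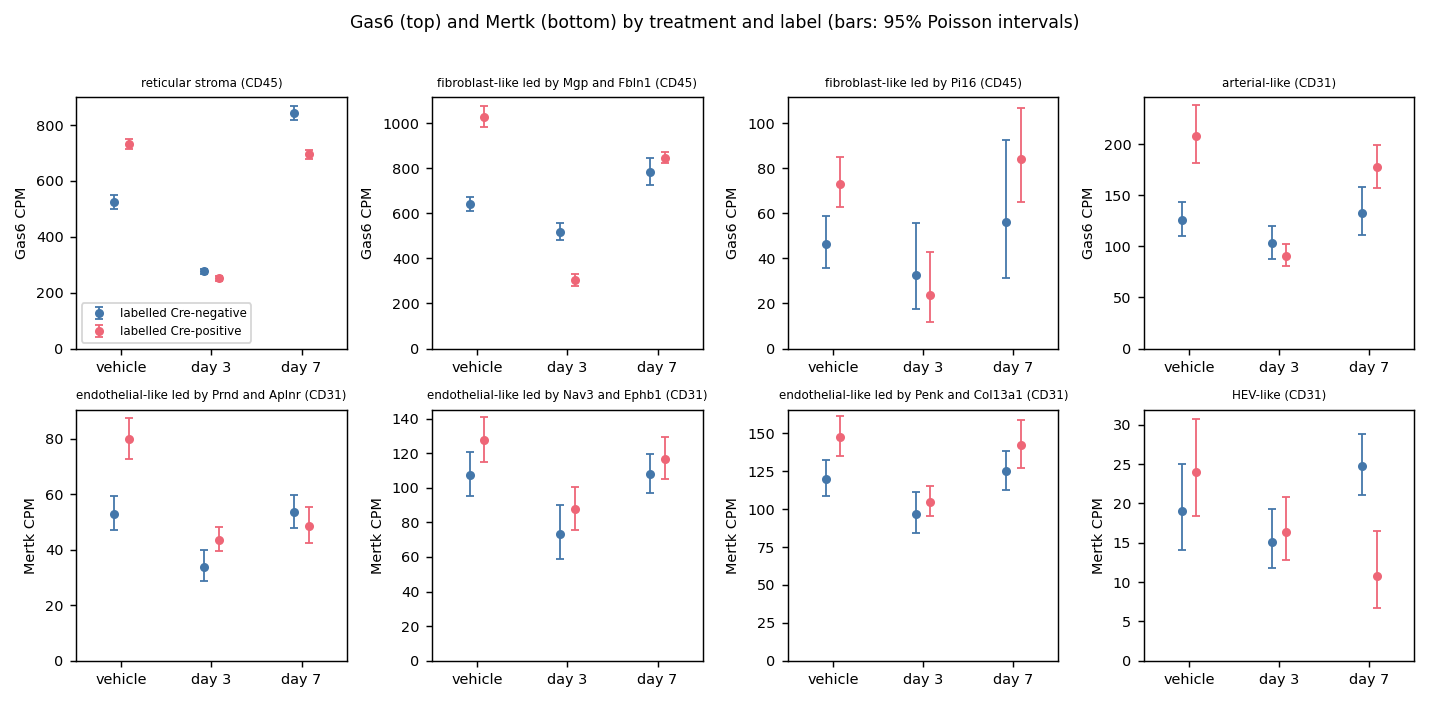
CPM of Gas6 in 3 stromal classes and arterial-like cells (top) and of Mertk in 4 endothelial classes (bottom) at vehicle, day 3 and day 7, with libraries labelled Cre-negative in blue and Cre-positive in red and 95% exact Poisson intervals as bars. In each panel both day 3 points lie below both vehicle points, and none of the 8 passed the edgeR test. This order was held by 14.6% to 34.7% of genes in the classes drawn. Classes whose groups overlapped, such as arterial-like and capillary-like cells for Mertk, are not drawn.

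Mertk had lower values at day 3 in 4 of the 6 blood endothelial-like classes. In the class led by Nav3 and Ephb1 it was at 108 and 127, 73.1 and 87.6, and 108 and 117 CPM (day 3 against vehicle, log2 difference -0.54, SE 0.14, edgeR adjusted p = 0.0852). In that led by Prnd and Aplnr it was at 52.96 and 79.9, 34.00 and 43.7, and 53.5 and 48.8 CPM (-0.70, SE 0.20, edgeR adjusted p = 0.123), in that led by Penk and Col13a1 at 120.0 and 148, 97.1 and 105, and 125 and 142 CPM (-0.37, SE 0.15, edgeR adjusted p = 0.313), and in HEV-like cells at 18.98 and 23.96, 15.2 and 16.4, and 24.7 and 10.8 CPM (-0.48, SE 0.36, edgeR adjusted p = 0.481). Both day 3 libraries were below both vehicle libraries in all 4, as were 22.5%, 34.7%, 27.5% and 23.8% of genes in those classes. The groups overlapped in arterial-like cells, at 131 and 154, 139 and 97.2, and 116 and 140.1 CPM (-0.24, SE 0.18, edgeR adjusted p = 0.558), and in capillary-like cells, at 80.9 and 91.2, 90.3 and 110.2, and 106 and 78.5 CPM (0.24, SE 0.17, edgeR adjusted p = 0.754). In the cluster with dendritic cell and monocyte genes of the CD31 fraction both day 3 libraries were above both vehicle libraries, at 7.06 and 1.26, 34.5 and 29.2, and 0 and 8.29 CPM, as were 24.6% of its genes. The reticular stroma had 14.2 and 15.7, 7.06 and 11.8, and 13.3 and 16.8 CPM (-0.61, SE 0.22, edgeR adjusted p = 0.133). Within its clusters Mertk was at 17.5 and 17.4, 7.43 and 8.74, and 15.7 and 16.9 CPM in that led by Ccl21a and Stmn2, with both day 3 values below both vehicle values. In that led by Saa3 and Cxcl13 it was at 7.63 and 24.1, 6.51 and 12.5, and 23.3 and 18.9 CPM, from 4 and 6 UMIs at vehicle, and in that led by Cyp2f2 and Stc1 at 14.1 and 14.9, 17.7 and 10.8, and 11.1 and 18.6 CPM, both with overlapping groups. The part of the mix of clusters in this sum was not tested either.

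For Axl, 8 of 10 classes tested had a log2 difference under 0 at day 3 (median -0.30), and 3 had an unadjusted p under 0.05, of which 2 were lower. These were the mixed myeloid cluster and capillary-like cells, the latter at 24.8 and 15.9, 11.1 and 15.99, and 24.7 and 24.7 CPM (-0.62, SE 0.27, edgeR adjusted p = 0.564). In mural-like cells the log2 difference was -0.80, SE 0.39, edgeR adjusted p = 0.661. The third, which was higher, was the cluster with dendritic cell and monocyte genes of the CD31 fraction, at 13.6 and 12.6, 43.1 and 31.8, and 7.80 and 10.4 CPM (day 3 against vehicle, log2 difference 1.48, SE 0.36, edgeR adjusted p = 0.149). Its make-up differed between libraries, which held 1 to 57 monocyte-like and 1 to 29 type 1 dendritic cell-like cells, and the part of this in the value was not tested. The mixed myeloid cluster of the CD45 fraction had 119 and 190.2, 67.7 and 106, and 196 and 139 CPM of Axl (-0.79, SE 0.28, edgeR adjusted p = 0.496), 27.8 and 38.9, 5.37 and 19.1, and 31.6 and 28.8 CPM of Gas6 (-1.49, SE 0.43, edgeR adjusted p = 0.383) and 42.2 and 111, 18.3 and 39.7, and 74.8 and 40.1 CPM of Pros1 (-1.31, SE 0.44, edgeR adjusted p = 0.474). It too is a mix, with 4 to 10 macrophage-like cells led by Marco and Cd209b and 3 to 30 led by Pf4 and Ccl12 in a library. Its cells led by Cxcl9 and Il1rn numbered 11 and 1 at vehicle and 74 and 38 at day 3. These held 52.9 CPM of Axl, 6.87 CPM of Gas6 and 2.75 CPM of Pros1. The part of this mix in the values was not tested. In fibroblast-like cells led by Pi16, where Axl was highest, it was at 893 and 787, 689.6 and 875, and 896 and 767 CPM (-0.17, SE 0.22, edgeR adjusted p = 0.878), with overlapping groups.

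At day 7, compared with the same vehicle libraries, edgeR called 0 of 57 tests, DESeq2 called 0, and 2 had an unadjusted p under 0.05. The 57 again include Gas6 in HEV-like cells, so the 2 are not read against the share over all tests. Among all tests 0.00562% were called at day 7 and 2.91% had an unadjusted p under 0.05. The 2 were Gas6 in lymphatic-like cells led by Lyve1 (log2 difference -0.49, SE 0.21, edgeR adjusted p = 1.00) and in HEV-like cells. The first was -0.15 without the vehicle library labelled Cre-positive and -0.75 without that labelled Cre-negative. The second is a description only, since Gas6 was chosen on its values in the same HEV-like libraries. Its log2 difference of -1.03 was 0.0575 without the vehicle library labelled Cre-positive. In the reticular stroma Gas6 was at 843 and 695 CPM at day 7, with one library above both vehicle libraries (0.29, SE 0.26, edgeR adjusted p = 1.000).

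Genes that work with these ligands and receptors were read from 6 lists, for carboxylation by vitamin K, receptor shedding, signalling and feedback, other receptors and bridges for phosphatidylserine, its exposure, and the handling of engulfed lipid. By label edgeR called none of 1193 tests of their 59 genes in a class, beside the 0.113% over all genes, and at day 7 none, beside 0.00562%. At day 3, 12 of the 1193 tests were called (1.01%, beside 0.465% over all genes), 4 higher and 8 lower than vehicle. Of these, 10 lay in 4 classes in which more genes were called at day 3, with 2.89% in arterial-like cells, 2.6% and 1.05% in cycling lymphocytes of the CD45 and CD31 fractions and 1.19% in the class led by Nav3 and Ephb1. B cell-like and T cell-like cells of the CD45 fraction, with 1 call each, had 0.0428% and 0.0627%. The median log2 difference over these tests was -0.05, and the median of all genes over the classes was 0.00 to 2 decimals. List genes were read from the reported fit alone, so none of the 12 calls was tried in the alternative fits. Cycling lymphocytes of the CD31 fraction numbered 81 and 21 at vehicle and 191 and 344 at day 3, Cre-negative first. The part of the mix of cells in the calls of cycling lymphocytes, in either fraction, was not tested.

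Among other phosphatidylserine receptors and bridges 5 of 237 tests were called at day 3. Scarb1, a lipoprotein receptor that also takes up dying cells, fell by 0.81 on the log2 scale in the class led by Nav3 and Ephb1 (edgeR adjusted p = 0.00529), from 817 and 657 CPM at vehicle to 452 and 386 CPM at day 3, and by 0.72 in arterial-like cells (edgeR adjusted p = 0.0289). The integrin chain Itgb3, part of a receptor for phosphatidylserine bridges, rose in the same 2 classes, by 1.09 (edgeR adjusted p = 0.0457) and 1.14 (edgeR adjusted p = 0.0139). Its partner Itgav fell by 1.51 in cycling lymphocytes of the CD45 fraction (edgeR adjusted p = 0.00244), from 97.1 and 135 CPM at vehicle to 33.4 and 48.8 CPM.

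The list for engulfed lipid had 3 of 171 tests called, all lower at day 3. Pparg, a lipid-sensing nuclear receptor, fell by 1.07 in arterial-like cells (edgeR adjusted p = 0.0178), from 174 and 202 CPM at vehicle to 118 and 62.5 CPM. The cholesterol exporter Abca1 fell by 1.10 in T cell-like cells (edgeR adjusted p = 0.0413) and the mitochondrial carrier Ucp2 by 0.67 in cycling lymphocytes (edgeR adjusted p = 0.0361), both of the CD45 fraction. Of the signalling and feedback list 3 of 460 tests were called. The interferon receptor chain Ifnar2 fell by 0.97 and 1.07 in cycling lymphocytes of the CD45 and CD31 fractions (edgeR adjusted p = 0.0231 and 0.0334). The cytokine feedback gene Socs3 rose by 1.62 in B cell-like cells of the CD45 fraction, from 18.7 and 13.3 CPM at vehicle to 50.9 and 48.2 CPM (edgeR adjusted p = 0.0270). Calu, an inhibitor of carboxylation, rose by 0.81 in arterial-like cells (edgeR adjusted p = 0.0288), the only call of 102 tests of its list. No gene of receptor shedding (100 tests) or phosphatidylserine exposure (123 tests) was called.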

How the data were processed

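Lymph nodes were dissociated enzymatically and split on CD45 beads before sorting, and a 10x Genomics 3-prime kit was used, per the labels' protocols. The deposited matrices hold raw UMI counts per gene and barcode, with all barcodes listed. The file headers name Cell Ranger 4, whereas the submitters' processing notes name Cell Ranger 7.0.1 and the build mm10. The annotation and the handling of strand are not given in the sources used here. An added feature, mRFP, was listed in 4 CD31 libraries (the 3 labelled Cre-positive and that of day 7 labelled Cre-negative) and was left out. The part of this difference in the label values was not tested.

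Barcodes with at least 1000 UMIs, 500 genes and no more than 10% of UMIs from mitochondrial genes were taken as cells. The highest Scrublet scores (0.8% per 1000 barcodes) were removed by rank, leaving 89054 cells. The automatic threshold of Scrublet marked 3 barcodes or fewer in 3 libraries and so had not worked there. Each fraction was clustered with scanpy 1.11.5 (2000 variable genes without the 5 genes and their lists, 30 principal components, 20 neighbours, Leiden resolution 1, edges weighted by shared neighbours). Clusters were named after their leading genes had been seen. Another seed, an alternative chosen after seeing the data, put 90.6% of CD31 and 99.0% of CD45 cells in the same class, but called 2814 cells HEV-like in place of 2051, of which 1890 were shared. Names rebuilt here can therefore differ from those of an earlier grouping. Classes with under 20 cells in a library were not compared. Clusters with few UMIs, granulocyte genes or mixed epithelial genes were left out. The first of these took 2052 of its 2637 cells from the day 3 CD31 library labelled Cre-positive.

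Each class gave 1 sum of UMIs per library, and these sums were fitted with edgeR 4.0.16 (R 4.3.3): TMM scaling, the default expression filter, and edgeR's quasi-likelihood test, with label and treatment as additive terms and 2 residual degrees of freedom. P-values were adjusted over all genes of a class by Benjamini and Hochberg and called at 0.05. With 1 library per group, the spread behind these p-values is the departure of the libraries from the additive terms, with information shared over genes. It holds any difference of the label effect between treatments. It is not a spread between replicate libraries or between mice, which may be pooled. DESeq2 1.42.0, other filters and scalings, free RNA subtraction (barcodes with at most 100 UMIs) and leaving out libraries were alternatives. In bulk sums of a class, fewer expressing cells and less RNA per cell cannot be told apart. Intervals and limits of 3 counts cover counting error only. Coordinates are from GENCODE M21, which holds 99.6% of the listed genes.

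The 5 genes, the lists and the tests were chosen with earlier results of these data known. Genes named were the 5 genes in the classes, the list genes called (at most 6 per list) and, for each of the 5 genes, the 3 genes with the most alike profile among those with at least 5 CPM in a class.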

Additional observations from a re-analysis of the deposited data

How the results depend on the processing

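Replicates could not be paired because each group is 1 library and the labels give no replicate numbers, so no replicate block could be fitted. Libraries of the 2 labels were matched by treatment only, which was a term of the reported fit. By label, the count of calls among the 5 genes was 1 and became 2 with no expression filter, 2 with DESeq2, 3 with another clustering seed (Gas6 in the classes led by Nav3 and Ephb1 and by Prnd and Aplnr and in arterial-like cells), 0 with doublets kept and 0 in cells with a UMI of the Y chromosome. With a library or a treatment left out it ran from 0 to 2. It was 0 without either day 3 CD31 library or the day 3 pair, and 2 without the vehicle CD31 library labelled Cre-negative, either day 7 CD31 library, the day 7 pair or the day 7 CD45 library labelled Cre-negative. At day 3 the count was 0 and became 11 with no expression filter, 1 with DESeq2, 1 with only cells of at least 2000 UMIs, 1 with free RNA subtracted and 1 with another clustering seed. With no expression filter more pairs of a gene and a class were tested, so its counts are not out of the same tests. Shares over all genes are not given for the alternatives, so none of their counts is read as a result about the 5 genes. With a library left out it ran from 0 to 4. It was 4 without the vehicle CD31 library labelled Cre-negative, either day 7 CD31 library or the day 7 CD45 library labelled Cre-negative, 3 without the vehicle CD45 library labelled Cre-negative, 2 without the day 7 CD45 library labelled Cre-positive and 1 without the vehicle CD31 library labelled Cre-positive. At day 7 it was 0 in every alternative run. A fit without 1 library has 1 residual degree of freedom. The cause of these moves was not tested. The mean log2 label ratio of Gas6 in HEV-like cells ran from 1.42 without the vehicle pair to 2.54 with free RNA subtracted, a lower bound in which the library at 0 was set to 3 counts. As Gas6 was chosen on this ratio, its sign under these alternatives supports nothing. The count of neighbouring classes that differed in all 6 libraries was 23 of 150, 24 with free RNA subtracted and 23 with a pseudocount of 10 CPM, with no share over all genes beside it. Of 415 alternative fits of the 29 single results with an unadjusted p under 0.05, 367 kept their side of the threshold and 42 passed it where the reported fit missed it. The 5 that lost it were all Gas6 by label in the class led by Nav3 and Ephb1. The 1 that reversed was Gas6 at day 7 in HEV-like cells, where the log2 difference ran from -1.58 to 0.0575 with a library left out (-1.58 without the vehicle CD31 library labelled Cre-negative, 0.0575 without that labelled Cre-positive). That result is among the 29 but is a description only, since Gas6 was chosen on the same HEV-like libraries.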
